A study of Homo sapiens with 6 samples.

Results

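Transcripts of the MHC class II antigen presentation pathway were examined in U251 cells, an established line from a human glioma, that had been given short hairpin RNAs by lentivirus. The genes were CIITA, RFX5, RFXAP, RFXANK, HLA-DRA, HLA-DPA1, HLA-DMA, HLA-DMB and CD74, 9 of the 18712 genes measured. They were followed through all 28 probe sets whose annotation in the authors' deposited table names 1 of them and no other gene. One group carried a hairpin against CPVL, which encodes a serine carboxypeptidase (shCPVL, 3 arrays), and the other a negative control hairpin (shCtrl, 3 arrays), so that every array came from cells that had received a lentivirus. The labels name 1 cell line and no second hairpin, and they do not say whether the replicates were separate cultures, so the p-values rest on a spread between arrays that may be no more than technical.

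Expression was read as log2 RMA values, which are background-corrected, equalised in distribution between arrays and summarised over the probes of a probe set. Over all probe sets the correlation was 0.997 or above within groups and 0.992 to 0.993 between them. CPVL was at 7.38, 7.25 and 7.21 in shCPVL, against 8.24, 8.39 and 8.18 in shCtrl, and its signal was 50.5% of that of shCtrl (limma adjusted p = 8.29e-05). In these bulk samples fewer expressing cells and less RNA per cell cannot be told apart. A list of 8 astroglial markers held 3 genes that fell and 0 that rose (37.5% called). Over all genes 20.1% were called, 11.6% as lower. GFAP, the intermediate filament gene of astrocytes, averaged 9.17 ± 0.05 in shCPVL and 10.17 ± 0.11 in shCtrl (SD, n = 3 each), and VIM averaged 14.29 ± 0.02 in shCPVL and 14.24 ± 0.01 in shCtrl (SD, n = 3 each). Of 12 markers of blood-derived cells that carry class II constitutively, limma called 0. At shCtrl levels of 4.21 to 7.36, where most of the 12 lie, 7.68% of genes were called, so a count of 0 is near that share. Of the 12, 0 had an unadjusted limma p under 0.05, where 30.9% of all genes did. That share covers genes of all levels, and the one at the levels of the 12 was not determined. Their levels summed to 66.3 to 68.5 log2 units in shCPVL and to 67.2 to 68.5 in shCtrl. The mean levels of the 12 in shCtrl ran from 3.41 for PTPRC, which encodes the leukocyte antigen CD45, to 7.69 for ITGAX, an integrin gene of dendritic cells, and whether the higher ones lay above background was not determined.

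MHC class II molecules are heterodimers of an alpha and a beta chain that present peptides from the endocytic pathway to CD4+ T cells. In the endoplasmic reticulum the heterodimer binds the invariant chain, encoded by CD74, and in the endosome HLA-DM, a heterodimer of the products of HLA-DMA and HLA-DMB, exchanges the invariant chain remnant for a peptide. The genes share a promoter module of X and Y boxes. The RFX complex, made of RFX5, RFXAP and RFXANK, binds the X box and NF-Y binds the Y box, whose core is CCAAT. CIITA, the class II transactivator, does not bind DNA itself but is recruited to these factors, and its expression decides in most cells whether class II genes are transcribed. Professional antigen-presenting cells express CIITA constitutively, and many other cells, astroglial cells included, express it in response to interferon gamma.

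The promoter windows of HLA-DMA, HLA-DMB and CD74, which were not called, are shown because these hold both CCAAT, the core of the Y box, and the letters TGATGA. That of B2M, the class I light chain gene that rose, is shown beside them. RefSeq windows of GRCh38.p14, which run from 250 bases before to 50 bases after a transcript start, were given for 7 of the 9 genes. The window of HLA-DMA lies at chr6:32953048-32953347 on the minus strand, that of HLA-DMB at chr6:32940979-32941278 on the minus strand, that of CD74 at chr5:150412861-150413160 on the minus strand and that of B2M at chr15:44711267-44711566 on the plus strand. Capitals mark CCAAT on either strand, TGATGA on either strand and, in HLA-DMA and HLA-DMB, the longest run of letters that their windows have in common.
HLA-DMA: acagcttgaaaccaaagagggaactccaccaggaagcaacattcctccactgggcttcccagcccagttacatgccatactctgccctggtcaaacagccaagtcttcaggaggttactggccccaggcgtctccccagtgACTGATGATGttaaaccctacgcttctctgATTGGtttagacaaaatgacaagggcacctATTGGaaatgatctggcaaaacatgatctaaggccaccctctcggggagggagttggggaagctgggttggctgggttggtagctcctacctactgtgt
HLA-DMB: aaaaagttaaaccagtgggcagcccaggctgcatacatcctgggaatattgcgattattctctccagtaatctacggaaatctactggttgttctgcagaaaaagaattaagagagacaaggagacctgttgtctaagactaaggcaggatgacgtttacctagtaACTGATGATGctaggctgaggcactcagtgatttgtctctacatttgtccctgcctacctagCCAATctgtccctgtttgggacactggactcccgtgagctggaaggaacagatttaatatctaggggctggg
CD74: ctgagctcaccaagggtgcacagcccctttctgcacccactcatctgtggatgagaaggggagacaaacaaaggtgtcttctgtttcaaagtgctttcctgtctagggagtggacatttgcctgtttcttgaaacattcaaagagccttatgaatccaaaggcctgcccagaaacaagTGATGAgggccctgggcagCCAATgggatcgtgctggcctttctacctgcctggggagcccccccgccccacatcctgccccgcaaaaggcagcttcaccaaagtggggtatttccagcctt
B2M: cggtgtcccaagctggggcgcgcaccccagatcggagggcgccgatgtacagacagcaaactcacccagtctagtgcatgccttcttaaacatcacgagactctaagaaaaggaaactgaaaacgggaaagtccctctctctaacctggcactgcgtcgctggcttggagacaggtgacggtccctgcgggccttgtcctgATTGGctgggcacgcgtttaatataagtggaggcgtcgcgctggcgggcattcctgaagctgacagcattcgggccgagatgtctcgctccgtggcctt

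The run common to HLA-DMA and HLA-DMB was ACTGATGATG, 10 bases long, from −109 to −100 before the HLA-DMA start and from −84 to −75 before the HLA-DMB start. It occurred on either strand in 30 of 35116 windows (0.0854%), which include these 2 and overlapping windows of the same gene. Its presence in both was given by the way it was picked. Whether 2 windows often share a run this long was not tested. Its inner 6 letters, TGATGA, stood at −72 to −67 in CD74, and 10.9% of all windows held them on either strand. HLA-DPA1 held them too, at 33 to 38 after the start of 1 of its transcripts. The letters CCAAT on either strand were present in 4 of the 12 windows of the 7 genes (33.3%), against 34.6% of all windows, which is about the same share. They followed the 6 letters toward the start in HLA-DMA (from −79 and from −49, both as ATTGG), HLA-DMB (from −22) and CD74 (from −53). In 1 RFX5 window without the 6 letters, CCAAT stood from −177 and from −95. The B2M window held CCAAT, as ATTGG, from −49 and not the 6 letters. Whether any of these is a Y box was not determined. These letters were chosen after the windows had been read. A match of letters is no evidence of binding, and the lack of one is no evidence against it.

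None of the 9 genes was called in either direction. With limma across all genes (Benjamini-Hochberg adjusted p under 0.05), 0 of 9 passed, where 20.1% of all genes did (8.45% higher and 11.6% lower), and 1 of 9, HLA-DMA, had an unadjusted p under 0.05, where 30.9% of all genes did. Of the genes at the levels of CIITA, CD74 and the HLA genes limma called 7.68%, so 0 of these 6 is near that share. The median log2 difference, shCPVL minus shCtrl, was −0.03 over the 9 genes and −0.01 over all genes. At the level of probe sets, 0 of 28 were called, where 18.5% of all probe sets were, and 2 of 28 had an unadjusted p under 0.05, where 29.9% of all did. The 28 differences lay between −0.20 and 0.13, with 14 above and 14 below 0. The 95% confidence intervals reached at most −0.40 downward and 0.30 upward, so that no probe set's interval held a fall below 0.756 times or a rise above 1.23 times the control signal. In the authors' deposited table, 0 of the 28 probe sets had an FDR under 0.05, where 23.9% of all probe sets did, and the lowest FDR was 0.0940 (RFX5). The shares of all probe sets, and the 30.9% of all genes, cover all levels. Those at the levels of the 9 genes were not determined. These intervals concern the measured signal, which near background understates changes of the transcript.

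**Figure D1:**
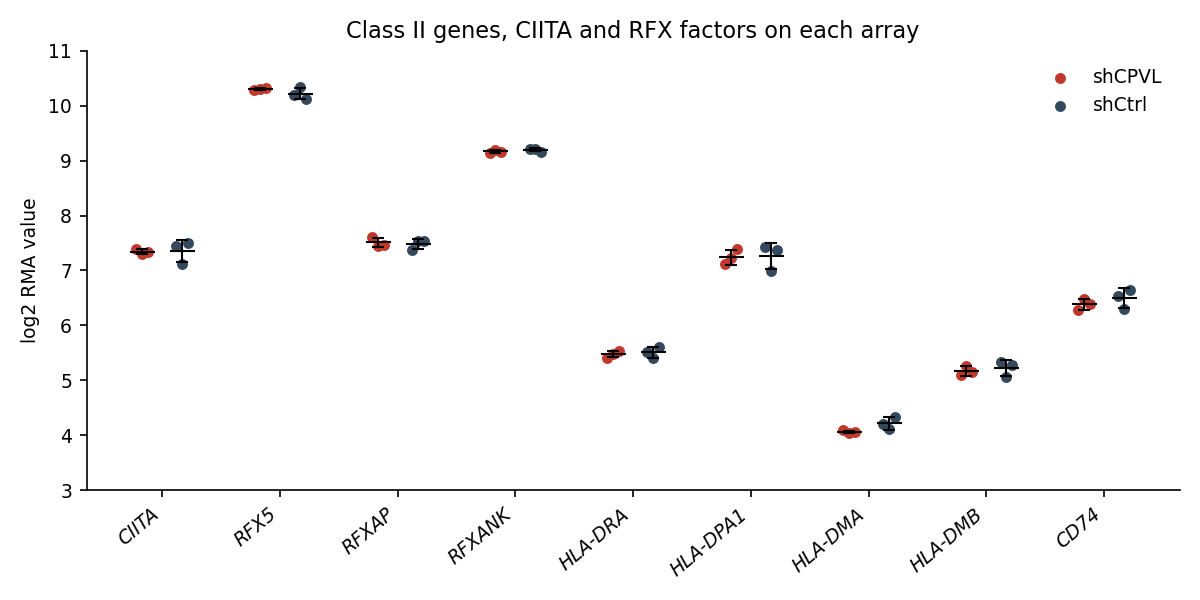
Log2 RMA value of the brightest probe set of each of the 9 genes on each of the 3 shCPVL arrays (red) and 3 shCtrl arrays (dark blue), with mean and SD as black lines. The groups overlap for every gene except HLA-DMA, where the shCPVL arrays sit at 4.04 to 4.09 and the shCtrl arrays at 4.11 to 4.33.

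CIITA, on chromosome 16, was measured by 4 probe sets. The brightest gave 7.38, 7.29 and 7.34 in shCPVL, against 7.44, 7.12 and 7.50 in shCtrl. All 3 shCPVL values lay between the lowest and the highest shCtrl value. The difference was −0.02 (SE 0.10, 95% confidence interval −0.24 to 0.21, limma adjusted p = 0.940). In the authors' alignment, whose build is not named, this probe set covers 10971045 to 10997740, and the others extend to 11002744, 11018294 and 11018840 on the plus strand. The differences of these were 0.06, 0.06 and −0.20 in the same order, with overlapping groups in each. The largest difference among the 28 probe sets, −0.20 (probe set fit, 95% confidence interval −0.40 to 0.0042, adjusted p = 0.176), belonged to the last, which gave 4.41, 4.28 and 4.52 in shCPVL, against 4.77, 4.48 and 4.56 in shCtrl.

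RFX5, the subunit with the RFX DNA-binding domain, gave 10.29, 10.30 and 10.33 in shCPVL, against 10.20, 10.34 and 10.13 in shCtrl, on its brightest probe set. The shCPVL arrays sat together inside the shCtrl range, and the difference of 0.09 (SE 0.06) was not called (adjusted p = 0.438). It was called at 0.10 when arrays were weighted by their estimated quality (limma adjusted p = 0.0331). Those weights were 6.84 for shCPVL replicate 2 and 3.96 for shCtrl replicate 1, against 0.38 to 0.51 for the other arrays. That fit called 9761 of all 18712 genes. The other RFX5 probe sets also leaned upward, by 0.05 and 0.13. The last gave 8.87, 8.84 and 8.74 in shCPVL, against 8.69, 8.69 and 8.67 in shCtrl, without overlap of the groups, and did not pass over all probe sets (adjusted p = 0.149). Groups did not overlap in 35% of all probe sets and in 2 of the 28.

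RFXAP and RFXANK had 1 probe set each. RFXAP, the RFX-associated protein gene on chromosome 13, gave 7.61, 7.45 and 7.47 in shCPVL, against 7.37, 7.53 and 7.53 in shCtrl. The values overlapped, with a difference of 0.03 (SE 0.07, adjusted p = 0.814). RFXANK, on chromosome 19, which encodes the ankyrin repeat subunit, gave 9.14, 9.20 and 9.16 in shCPVL, against 9.21, 9.21 and 9.16 in shCtrl. It had the narrowest interval of the 9 genes, from −0.14 to 0.08 around a difference of −0.03 (adjusted p = 0.758).

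The classical alpha chain genes lie in the class II region of chromosome 6. HLA-DRA gave 5.41, 5.48 and 5.54 in shCPVL, against 5.51, 5.41 and 5.60 in shCtrl, on the brightest of its 3 probe sets. The arrays of both groups were interleaved, and the difference was −0.03 (SE 0.06, 95% confidence interval −0.18 to 0.12, adjusted p = 0.821). Its other probe sets averaged 3.98 ± 0.11 and 3.75 ± 0.13 in shCPVL and 3.88 ± 0.15 and 3.72 ± 0.17 in shCtrl (SD, n = 3 each), with differences of 0.10 and 0.02. A further probe set shared by HLA-DRA and HLA-DQA1, which the choice by 1 gene leaves out, differed by 0.03.

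HLA-DPA1 gave 7.11, 7.22 and 7.39 in shCPVL, against 7.43, 6.98 and 7.36 in shCtrl. The spread within shCtrl, an SD of 0.24, was the widest of the 9 genes, and shCtrl replicate 2 was the lowest of all arrays. The difference was −0.02 (SE 0.12, 95% confidence interval −0.30 to 0.26, adjusted p = 0.945), and the other 3 probe sets differed by −0.09 to 0.01.

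The genes of the peptide exchange factor HLA-DM lie next to each other in the same region. HLA-DMA gave 4.09, 4.04 and 4.05 in shCPVL, against 4.20, 4.11 and 4.33 in shCtrl. All shCPVL arrays lay below all shCtrl arrays. Groups did not overlap, in either direction, in 35.9% of all genes. The difference of −0.16 (SE 0.06) did not pass over all genes (adjusted p = 0.144), and an exact permutation of the arrays gave p = 0.1, its lower limit with 3 arrays a group. It was called with array weights (−0.17, limma adjusted p = 0.00449), a fit that called 9761 of all 18712 genes. The second HLA-DMA probe set, aligned to almost the same stretch, differed by −0.02 (adjusted p = 0.868). HLA-DMB gave 5.09, 5.27 and 5.16 in shCPVL, against 5.33, 5.06 and 5.27 in shCtrl, a difference of −0.05 (SE 0.08, adjusted p = 0.768). This probe set is aligned from 32902407 to 32920899 and so spans the position of HLA-DMA, whose own probe sets are aligned from 32916392. The other 4 HLA-DMB probe sets, which end at 32908803 or before, differed by −0.01 to 0.08.

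CD74, on chromosome 5, gave 6.28, 6.48 and 6.39 in shCPVL, against 6.54, 6.30 and 6.65 in shCtrl. The groups overlapped, and the difference was −0.11 (SE 0.09, 95% confidence interval −0.33 to 0.11, adjusted p = 0.514). The other 4 CD74 probe sets fell on both sides of 0, from −0.16 to 0.08, and all 5 averaged between 4.31 and 6.38 in shCPVL and between 4.48 and 6.50 in shCtrl.

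**Figure D2:**
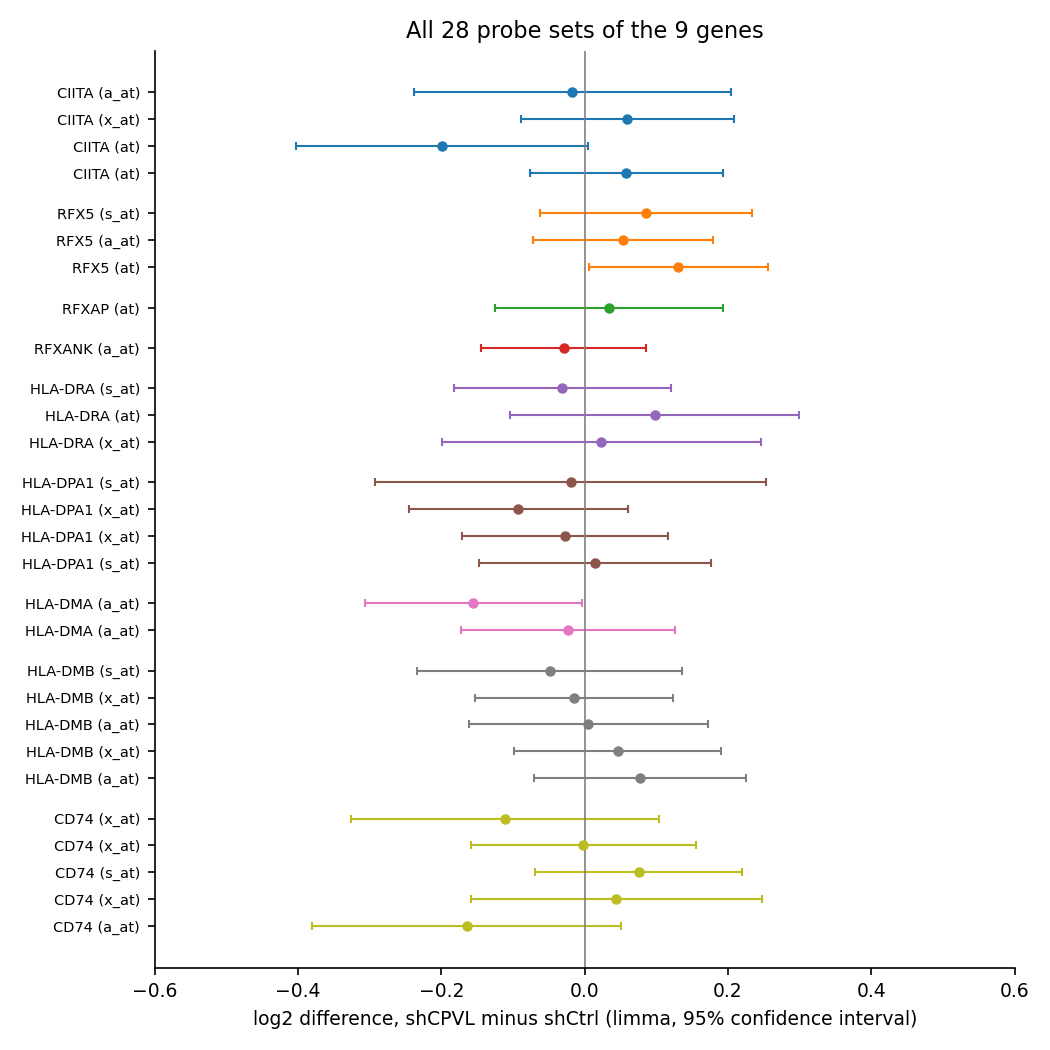
Log2 difference, shCPVL minus shCtrl, of all 28 probe sets with the 95% confidence interval of the limma fit over all probe sets, grouped by gene and labelled with the suffix of the probe set. All points lie between −0.20 and 0.13, and the intervals include 0 for all but 2 probe sets, 1 each of RFX5 and HLA-DMA.

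The array carries 23 background control probe sets, which match no human transcript and are graded by the number of G and C bases in their probes, from 3 to 25. Their signal ran from 2.67 for the AT-rich ones to 11.61 for the GC-rich ones, and their mean was 4.91 ± 0.07 in shCPVL and 4.95 ± 0.03 in shCtrl (SD, n = 3 each; difference −0.03, exact permutation p = 0.5). The 23 probe sets of CIITA, CD74 and the HLA genes averaged 3.71 to 7.35 over the 6 arrays and exceeded between 11 and 19 of the 23 controls on a given array. Controls with 14 to 21 G and C bases spanned about the same levels, from 3.57 to 7.33 in shCPVL. The base composition of these genes' own probes was not given in the files, so it was not determined which of these probe sets lay above the background of probes like theirs. RFX5 and RFXANK, at 8.75 to 10.26 on their 4 probe sets, exceeded 20 to 22 of the 23 controls, and RFXAP exceeded 18 to 19. None of the RFX probe sets exceeded all controls, and the base composition of their probes was not given either.

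**Figure D3:**
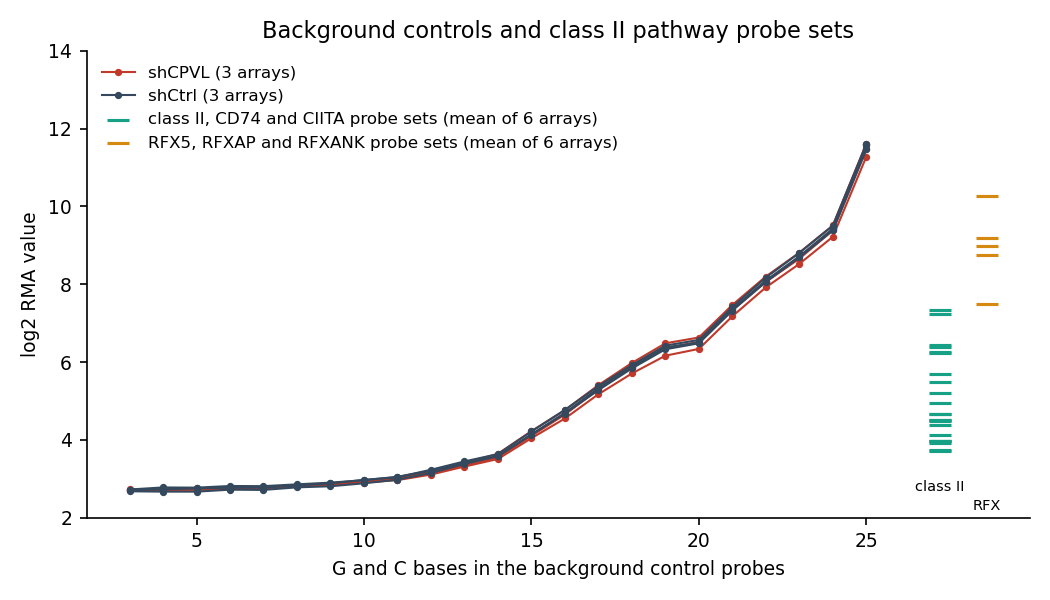
Log2 RMA value of the 23 background control probe sets against the number of G and C bases in their probes, 1 line per array for the 3 shCPVL arrays (red) and the 3 shCtrl arrays (dark blue). Dashes at the right give the 6-array mean of each probe set of CIITA, CD74 and the HLA genes (green, 3.71 to 7.35) and of RFX5, RFXAP and RFXANK (orange, 7.49 to 10.26).

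Within each group the same array was most often the lowest in the class II genes and in the background controls with at least 10 G and C bases. Among the 23 probe sets of CIITA, CD74 and the HLA genes, shCPVL replicate 1 was the lowest shCPVL array in 15 and shCPVL replicate 3 in 0, and shCtrl replicate 2 was the lowest shCtrl array in 15. Of the 16 background controls with at least 10 G and C bases, shCPVL replicate 1 was the lowest shCPVL array in 16 and shCtrl replicate 2 the lowest shCtrl array in 12. The controls with 3 to 9 G and C bases went the other way. In these, shCtrl replicate 3 was the lowest shCtrl array in each, and shCPVL replicate 3 the lowest shCPVL array in most. Of all 25460 probe sets in the same range of levels, shCtrl replicate 2 was the lowest shCtrl array in 48.8% and shCPVL replicate 1 the lowest shCPVL array in 44.8%. In the 5 RFX probe sets shCtrl replicate 2 was the lowest in 0. The part of background in these array differences was not tested further.

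Changes were called among other genes at these levels. Of 7848 genes whose shCtrl level lay in the range of CIITA, CD74 and the HLA genes, 4.21 to 7.36, limma called 603, 373 higher and 230 lower, and 32 of these changed at least 2-fold. The smallest called change among them was 0.15 in size. Among them was the interferon-induced GTPase gene MX1, at 8.84 ± 0.08 in shCPVL and 4.23 ± 0.12 in shCtrl (SD, n = 3 each). Changes at this level were thus measurable for those probe sets, and whether each class II probe set would respond alike was not tested.

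The class II chains outside the 9 genes were not called either. Of 11 listed, 8 had a probe set of their own, and limma called 0 of these 8, with 0 at an unadjusted p under 0.05 (median 0.04). Limma called 20.1% of all genes and 7.68% of those at 4.21 to 7.36, where 6 of the 8 lie, so a count of 0 is near that share. HLA-DPB1, the partner of HLA-DPA1, averaged 8.24 ± 0.14 in shCPVL and 8.10 ± 0.14 in shCtrl (SD, n = 3 each; adjusted p = 0.357). HLA-DRB1, the partner of HLA-DRA, averaged 5.85 ± 0.22 in shCPVL and 5.63 ± 0.10 in shCtrl (SD, n = 3 each), the largest difference of the list at 0.22 (adjusted p = 0.210). HLA-DRB4 differed by 0.09, HLA-DQA1 by 0.07, HLA-DQB1 by 0.02, HLA-DOB by 0.01, HLA-DRB5 by −0.0040 and HLA-DOA by −0.03. Over all 36 of their probe sets 0 were called and 1, of HLA-DOB, had an unadjusted p under 0.05. The class II probe sets shared between genes numbered 9, of which 0 were called and 0 had an unadjusted p under 0.05 (−0.08 to 0.13). Probe sets of polymorphic HLA genes can cross-hybridise with related genes, and 15 of the 28 probe sets of the 9 genes carry the suffixes x_at or s_at, which mark probes shared with other transcripts.

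The factors around the class II module were called no more often than the 20.1% of all genes. Of 7 cofactors of the class II promoter, 1 fell and 0 rose (14.3% called; median −0.05): NFYB, a subunit of the Y box factor NF-Y, averaged 8.21 ± 0.09 in shCPVL and 8.48 ± 0.03 in shCtrl (SD, n = 3 each; −0.27, SE 0.06, adjusted p = 0.0144). That call was lost without shCPVL replicate 2 (−0.24, adjusted p = 0.0699) and without shCtrl replicate 1 (−0.26, adjusted p = 0.0612), and without moderation of the variances (adjusted p = 0.0517). The count of called cofactors ran from 0 to 5 over the alternatives. Of 8 RFX relatives, 1 rose and 0 fell (12.5% called; median −0.05): ANKRA2, an ankyrin repeat relative of RFXANK, averaged 9.16 ± 0.10 in shCPVL and 8.71 ± 0.03 in shCtrl (SD, n = 3 each; adjusted p = 0.00161).

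Of 13 genes of class II antigen processing and partners of the invariant chain, 5 rose and 0 fell (38.5% called, median 0.08). Over all genes 20.1% were called. IFI30, the lysosomal thiol reductase that unfolds antigens, rose by 0.47 (SE 0.06) to 8.29 ± 0.02 in shCPVL, against 7.82 ± 0.09 in shCtrl (SD, n = 3 each; adjusted p = 8.80e-04). MARCHF1, a ubiquitin ligase that removes class II molecules from the cell surface, rose by 0.42 (SE 0.08; adjusted p = 0.00866, and 0.0667 without moderation of the variances). The lysosomal protease gene CTSD rose by 0.35 (SE 0.05, adjusted p = 0.00216). Without probe sets shared between transcripts, 10 genes of this list had a value and 3 were called, all higher. IFI30 and CTSD have no probe set outside the shared classes, so their rises rest on shared probe sets. With the mean or the median of the probe sets 4 genes of the list rose and 1 fell. With a variance trend, robust or not, 5 rose and 1 fell. Of 9 genes that act upstream of CIITA, 2 rose and 0 fell (22.2% called, median 0.17), near the share of all genes. An unadjusted limma p under 0.05 was found for 7, where 30.9% of all genes had one. Up to 7 were called under the alternatives, the most with array weights, which called 9761 of all 18712 genes. IRF1, which binds the interferon-inducible CIITA promoter, averaged 8.30 ± 0.01 in shCPVL and 7.83 ± 0.12 in shCtrl (SD, n = 3 each; difference 0.47, adjusted p = 0.00178). The hybridisation controls, bacterial RNA added to each sample, were also higher, at 11.04 ± 0.10 in shCPVL and 10.74 ± 0.06 in shCtrl (SD, n = 3 each), by 0.31, about as much as the smaller of these rises, and their part in them was not tested.

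**Figure D4:**
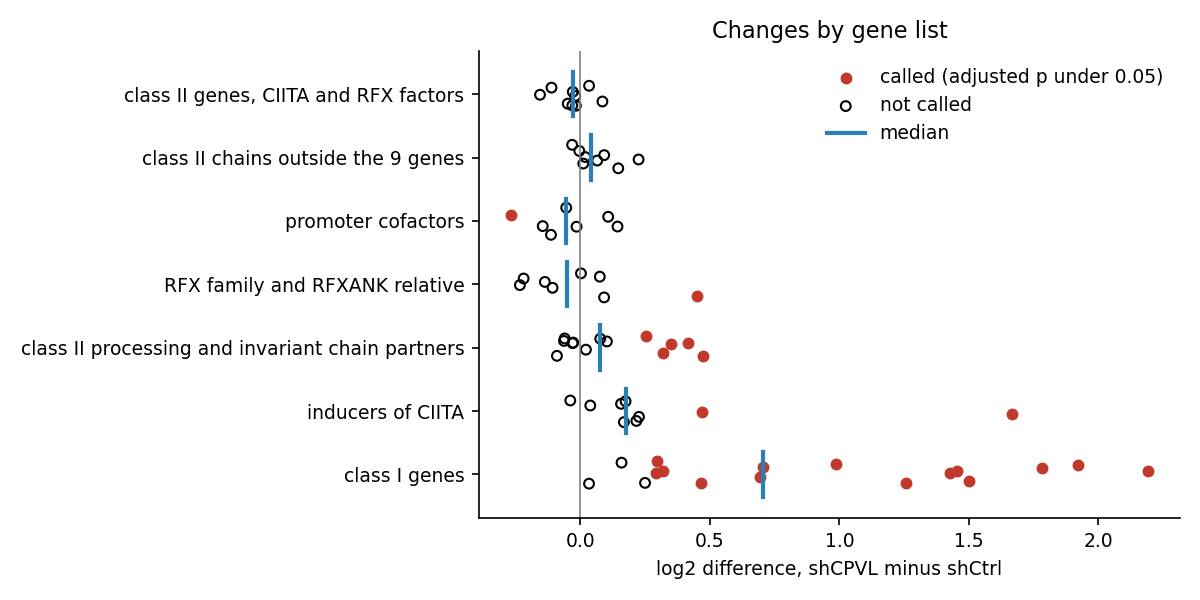
Log2 difference, shCPVL minus shCtrl, of each gene in 7 lists, with called genes as filled red points, uncalled genes as open points and the median of a list as a blue bar. The 9 genes and the other class II chains hold 0 called genes, and the class I list holds 14 of 17 with a median of 0.70.

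Class I genes stood beside the class II genes as the other arm of antigen presentation. Of 17 listed, 14 rose and 0 fell (82.4% called; median 0.70), led by HLA-F (2.19, SE 0.09), the immunoproteasome subunit gene PSMB9 (1.92, SE 0.05) and the peptide transporter gene TAP1 (1.78, SE 0.05). The value of HLA-F was 0.38 with the median of its 10 probe sets. NLRC5, the class I counterpart of CIITA, gave 8.20, 8.25 and 8.23 in shCPVL, against 6.85, 6.71 and 6.75 in shCtrl. Every shCPVL array exceeded every shCtrl array, by 1.45 on average (SE 0.05, adjusted p = 2.02e-06). The second NLRC5 probe set rose by 0.47. B2M averaged 14.01 ± 0.05 in shCPVL and 13.54 ± 0.02 in shCtrl (SD, n = 3 each; adjusted p = 4.62e-04), and all 8 of its probe sets rose.

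The contrast between the paired genes was tested within arrays on 2 pairs. The log2 value of CIITA minus that of NLRC5 averaged −0.89 ± 0.07 in shCPVL and 0.58 ± 0.17 in shCtrl (SD, n = 3 each), so the changes of signal differed by −1.47. That of CD74 minus B2M, the invariant chain against the invariant light chain of class I, averaged −7.62 ± 0.15 in shCPVL and −7.04 ± 0.18 in shCtrl (SD, n = 3 each), a difference of −0.58. The groups did not overlap in either pair, and each exact permutation test gave p = 0.1, the smallest possible, and 0.1 after adjustment over the 2 pairs. NLRC5 and B2M had themselves risen without overlap, so these tests add nothing on CIITA or CD74 alone. Without shared probe sets the first difference was −0.49. These differences compare changes of signal only, since levels of different probe sets are not comparable. The CIITA and CD74 signals were not shown to lie above background.

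**Figure D5:**
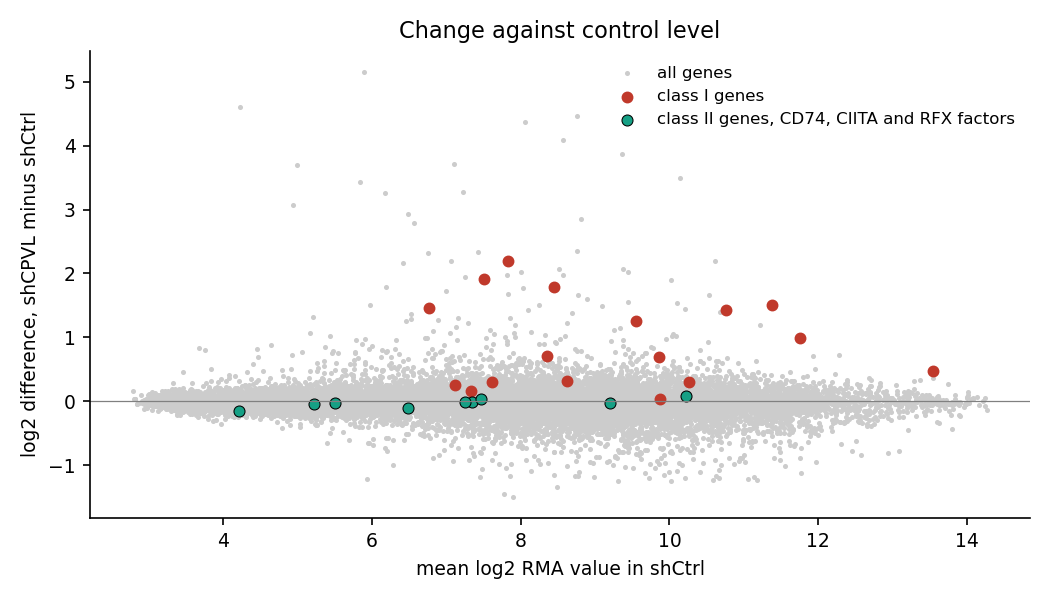
Log2 difference, shCPVL minus shCtrl, against the mean log2 RMA value in shCtrl for all 18712 genes (grey), 17 class I genes (red) and the 9 class II pathway genes (green). The 9 genes sit between −0.16 and 0.09 across shCtrl levels from 4.21 to 10.22, and class I genes reach 2.19.

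The genes whose pattern over the 6 arrays was most like that of RFX5, taken since none of the 9 genes was called, were MSRB2 (Pearson r = 0.992), MTA3 (r = 0.990) and ABCF1 (r = 0.990). None of these was called either, with differences of 0.08, 0.04 and 0.04. Of 18711 genes compared, 144 had r above 0.9, and with 6 arrays that share their processing this describes the arrays only.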

How the data were processed

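The authors deposited log2 expression values of 49395 probe sets. The submitters' processing notes name RMA for them, while its version and the build of the alignments are not given in the sources used here. They also deposited a comparison of knockdown with control arrays per the file headers, with p-values and FDR, log2 fold changes, a linear fold (ratio) and a signed fold score; of these the annotation, FDR and log2 fold changes were used, and the log2 fold changes equalled those computed here. Symbols came from an NCBI RefSeq table of GRCh38.p14 by Entrez identifier. Of the probe sets, 102 were array controls.

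All 49293 other probe sets were fitted with limma 3.58.1 in R 4.3.3 (lmFit and eBayes without trend, two-sided, Benjamini-Hochberg). A second fit used 18712 genes, each with its brightest probe set of exactly 1 identifier, with no filter on low values; single values for a gene come from this fit. A gene was called, "rose" or "fell", at an adjusted p under 0.05. Errors are SD over 3 arrays unless SE is named, and the number of arrays limits the precision. Single values were compared by exact permutation, which cannot go below p = 0.1.

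The 9 genes and the related lists were chosen with earlier results of these data known. The text names all 9, the other class II chains, NLRC5, B2M, CPVL and up to 3 called genes per list with the greatest change; MX1, GFAP, VIM, PTPRC and ITGAX were named after their values were seen. The values of 1 called gene of these lists are not reported here. The fits were tested on simulated data with independent noise and planted changes larger than any difference of the 9 genes. That test does not bear on changes as small as theirs. Alternatives were 2 normalizations, 4 variance models, a replicate block, 2 summaries of probe sets, 2 filters and leaving out each array. Same-numbered arrays did not deviate together in every pair (correlations −0.28, 0.12 and 0.26), so the numbers were not used as pairs.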

Additional observations from a re-analysis of the deposited data

How the results depend on the processing

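The call of none among the 9 genes held under every alternative except array weights, which called 2 (RFX5 and HLA-DMA). Among the 28 probe sets, 0 were called except with a further quantile normalization (1) and array weights (8). Array weights differed widely between arrays and also raised the count over all genes to 9761, against 3757, that over all probe sets to 21693, against 9127, and those of the other class II chains to 2, the cofactors to 5, the RFX relatives to 4 and the genes upstream of CIITA to 7. Without x_at and s_at probe sets 5555 probe sets were called, fewer being tested, and 3 of the 10 processing genes that kept a value, which leaves out IFI30 and CTSD.

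Cofactor calls numbered 2 with quantile normalization, with a variance trend and with a robust trend. They also numbered 2 without the dimmest 40% of genes and with the median of a gene's probe sets, and 0 without moderation. RFX relatives called were 2 with the trend, the robust trend and the mean of the probe sets. Genes upstream of CIITA called were 6 with quantile normalization, 5 with the trend, the robust trend and the dim filter, and 4 with the mean or median of the probe sets. The causes were not tested.

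Leaving out 1 array gave 2380 to 3282 called genes (lowest without shCPVL replicate 2, and 2438 without shCtrl replicate 1), 5648 to 8006 probe sets (5889 without shCtrl replicate 1), 0 to 1 cofactors and 1 to 2 RFX relatives.

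Signs of uncalled members turned, always without a call. Leaving out 1 array gave −0.14 to 0.06 for CIITA, above 0 without shCPVL replicate 2 (0.0061), shCtrl replicate 1 (0.03) or shCtrl replicate 3. It gave −0.019 to 0.063 for RFXAP, below 0 without replicate 1 of either group. It gave −0.081 to 0.016 for HLA-DRA, above 0 without shCPVL replicate 1 (0.0019) or shCtrl replicate 3. It gave −0.16 to 0.065 for HLA-DPA1, above 0 without shCPVL replicate 1 (0.04), shCtrl replicate 1 or shCtrl replicate 3 (0.03), and −0.13 to 0.0051 for HLA-DMB, above 0 without shCtrl replicate 1. HLA-DRA was at 0.10 without shared probe sets and with the median of the probe sets, and at 0.030 with the mean. HLA-DMB was at 0.0052 without shared probe sets and with the median, and at 0.013 with the mean. CD74 was at 0.058 with the median. CIITA minus NLRC5 was −0.49 without shared probe sets, −0.99 with the mean and −1.03 with the median.

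With the replicate number as a block, 3079 genes and 7672 probe sets were called, 0 of them members, and no call changed among the genes looked up in it: the 9 genes, CPVL, NLRC5, B2M, NFYB, ANKRA2, IFI30, MARCHF1, CTSD, IRF1, HLA-F, PSMB9 and TAP1. The dim filter removed HLA-DRA, HLA-DMA, HLA-DMB and CD74, and HLA-DPA1 has no probe set outside the shared classes, so these had no value there. The levels of all 9 genes, the RFX genes included, lie within the range of the background controls, which limits what their values can show. RFXAP exceeded 18 to 19 of the 23 controls, as did the brightest CIITA and HLA-DPA1 probe sets.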
